A study of Mus musculus with 9 samples.

Results

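WNT signalling in the mouse uterus was followed through 44 listed genes that encode WNT ligands, their receptors, their secreted antagonists and the proteins that carry or limit the signal. A listed gene was read where the platform annotation gives a probe set (short probes that together read a transcript) only that gene's symbol. Of its probe sets, the one with the highest mean over all arrays was used. By this rule 43 of the 44 genes were found, among 18193 genes measured in all, and Tcf7 was not analysed here. The 43 genes had 94 probe sets in all, and 32 of them had more than 1.

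Secreted WNT proteins bind Frizzled receptors on the cell surface together with a co-receptor, LRP5 or LRP6, and this keeps β-catenin from being destroyed so that it can drive transcription with TCF and LEF factors. Other WNT proteins act through receptor kinases such as ROR1 and ROR2 without β-catenin. In the uterus this signalling is known for building the glands and for preparing the epithelium and the stroma for the embryo.

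RNA of whole uteri on gestation day 3.5, when the embryo has reached the uterus and has not yet implanted, was measured on Affymetrix arrays with 3 arrays in each of 3 groups. In the first, called the double knockout, Mig-6 and Erbb2 were both deleted (Mig-6 d/d Erbb2 d/d). In the second only Mig-6 was deleted (Mig-6 d/d, the single knockout), and the controls carried undeleted floxed alleles, either of Mig-6 alone (Mig-6 f/f) or of Erbb2 as well. Mig-6, listed under the symbol Errfi1, encodes a protein that holds ERBB receptors in check, and ERBB2 is one of these receptors. Both knockouts carried Pgr cre/+, a cre recombinase placed in the progesterone receptor gene, so deletion was limited to cells that express this receptor. The controls had no cre, and the deletions cannot be told apart from the cre allele itself in comparisons with control. Pgr read 729 to 986 in the double knockout, 588 to 873 in Mig-6 d/d, with 1065 to 1613 in control. All mice were female and of a mixed C57BL/6 and 129P2/OlaHsd background. The sample labels give an age of 2 weeks, and the methods give adult mice. For each genotype the RNA of several mice was pooled. The sources do not say which array holds which control genotype or whether each array had its own pool, so p-values may reflect technical spread alone.

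Values are linear intensities, and the median of an array lay between 7.87 and 8.24. Fold changes are differences between mean log2 intensities. They were fitted in limma with the groups in 1 model. A gene was called where its p, adjusted by Benjamini-Hochberg over the 45037 probe sets, was under 0.05 and its change exceeded 1.5-fold. The uterine transcription factor gene Hoxa10 read 668 to 1005 in the double knockout, 455 to 704 in Mig-6 d/d, with 566 to 933 in control. The probe set used for Errfi1 read 76.05, 29.8 and 40.3 in the double knockout, against 454, 564.5 and 286 in control. In the libraries labelled as Mig-6 d/d it read 15.1, 16.0 and 255, which puts the third of these libraries close to control. The sources do not place the probe set relative to the deleted exons, and results are also given without the library labelled as Mig-6 d/d replicate 3. Erbb2 read 18.3, 9.88 and 18.45 in the double knockout, 46.55, 39.5 and 44.5 in Mig-6 d/d and 29.4, 36.7 and 45.7 in control. Among the WNT genes the array of control replicate 3 stood apart most often, with the highest of the 9 values for 12 of 43 genes (27.9%, against 9.5% of all genes).

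Marker genes of the cell types differed between the groups, and their levels are given before the results. Epithelial markers had a summed intensity of 3064 to 4452 in the double knockout, 8596 to 13130 in Mig-6 d/d, with 3395 to 5994 in control. All 13 measured of 14 listed exceeded control in Mig-6 d/d, 7 of them called, beside 2.55% of all genes called increased. All 13 were lower in the double knockout than in Mig-6 d/d, 9 of them called, beside 3.76% of all genes called decreased. Stromal markers summed to 30320 to 32290 in the double knockout, 22130 to 26380 in Mig-6 d/d, with 26790 to 30960 in control. All 13 of them were below control in Mig-6 d/d, with Vim and Nr2f2 called. All 8 smooth muscle markers and all 8 endothelial markers were also lower in Mig-6 d/d. Of these, 0 and 2 were called by limma, beside 1.81% of all genes called decreased. At an unadjusted limma p under 0.05, 7 and 8 were lower, beside 12.7% of all genes. In the double against the single knockout all 13 stromal, 8 smooth muscle and 8 endothelial markers were higher. Of these, 3, 3 and 5 were called, beside 3.73% of all genes called increased. Gland markers overlapped between all groups, at 268 to 476 in the double knockout, 267 to 638 in Mig-6 d/d, with 334 to 834 in control. Ovary and oviduct markers summed to 93.8 to 112 in the double knockout, 48.2 to 104 in Mig-6 d/d, with 49.8 to 66.0 in control. Mesothelial markers summed to 179.5 to 221 in the double knockout, 139.8 to 161.6 in Mig-6 d/d, with 174.9 to 235 in control. Leukocyte markers overlapped, at 489.9 to 623.8, 424.8 to 505.5 and 471.9 to 579.2 in the same order. Of 7 measured leukocyte markers 1, Csf1r, was called decreased in Mig-6 d/d against control, beside 1.81% of all genes. No marker was at 0 on this scale. In RNA of a whole uterus, fewer cells of a type and less RNA per cell cannot be told apart, and the part of the marker shifts in the WNT results below was not tested.

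**Figure D1:**
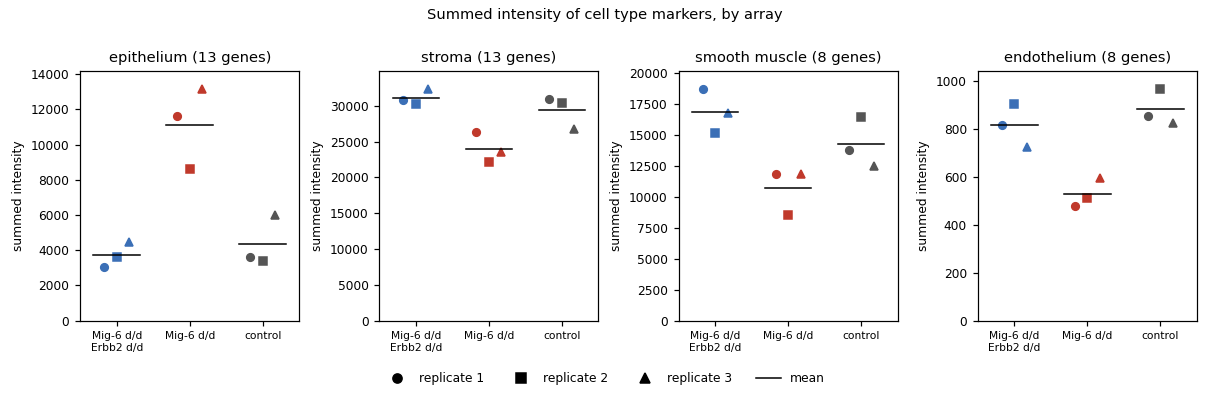
Summed linear intensity of the measured markers of 4 cell types, with 1 point per array, the shape giving the replicate and the bar the mean of 3 arrays, for the double knockout, Mig-6 d/d and control from left to right. The epithelial sum was 8596 to 13130 in Mig-6 d/d, above every other array, while the sums of the other 3 cell types were lowest there.

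Across the 43 genes, Mig-6 d/d against control gave 1 increased gene, Lgr4, and 3 decreased genes, Ror1, Rspo3 and Nkd1. Of all genes measured, 2.55% were called increased and 1.81% decreased in this comparison. The double knockout against control gave 0 increased genes and 1 decreased gene, Sfrp1, where 0.214% and 0.198% of all genes were called. At an unadjusted p under 0.05 in limma that comparison had 2 of the 43 genes higher and 12 lower, beside 4.25% and 3.72% of all genes. With 1 array left out, 6 (without double-knockout replicate 2) to 13 were lower, beside 2.64% to 4.91% of all genes. By the methods' t-test, 0 were higher and 4 lower, beside 3.4% and 2.62% of all genes. The double against the single knockout gave 2 increased genes, Fzd2 and Lef1, and 5 decreased genes, Wnt7a, Wnt7b, Sfrp1, Lgr4 and Rnf43, where 3.73% and 3.76% of all genes were called. With each array centred on its median, the split became 1 increased and 0 decreased in Mig-6 d/d against control, where 2.74% and 1.3% of all genes were called. In the double against the single knockout it became 1 increased and 5 decreased, where 3.18% and 4.02% of all genes were called. After a further quantile normalization the double against the single knockout had 3 increased and 4 decreased genes, beside 4.01% and 3.63% of all genes. These comparisons share arrays, so a gene that differs in 1 group alone appears in 2 of them.

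Counted by arrays that do not overlap between groups, 3 of the 43 genes lay above control in Mig-6 d/d (11.6% of all genes) and 9 lay below (14.1%). In the double knockout 3 lay above control (6.52%) and 9 below (5.32%), namely Wnt7b, Fzd10, Sfrp1, Sfrp5, Wif1, Nkd1, Lgr5, Znrf3 and Rnf43. Against Mig-6 d/d, 9 genes of the double knockout lay above (18.6%) and 10 below (14.2%). The median log2 fold change of the 43 genes was -0.13 in Mig-6 d/d against control and -0.20 in the double knockout against control, beside -0.03 and 0.01 over all genes. In the double knockout against control 32 of the 43 genes were lower and 11 higher, while 52.7% of all genes were higher. Against Mig-6 d/d their median was -0.00 (0.03 over all genes), and after a further quantile normalization it was 0.01. The 95% interval of the change lay within 1.5-fold in either direction for 11, 15 and 13 genes in the 3 comparisons, so for most of the 43 a change of that size was not excluded.

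**Figure D2:**
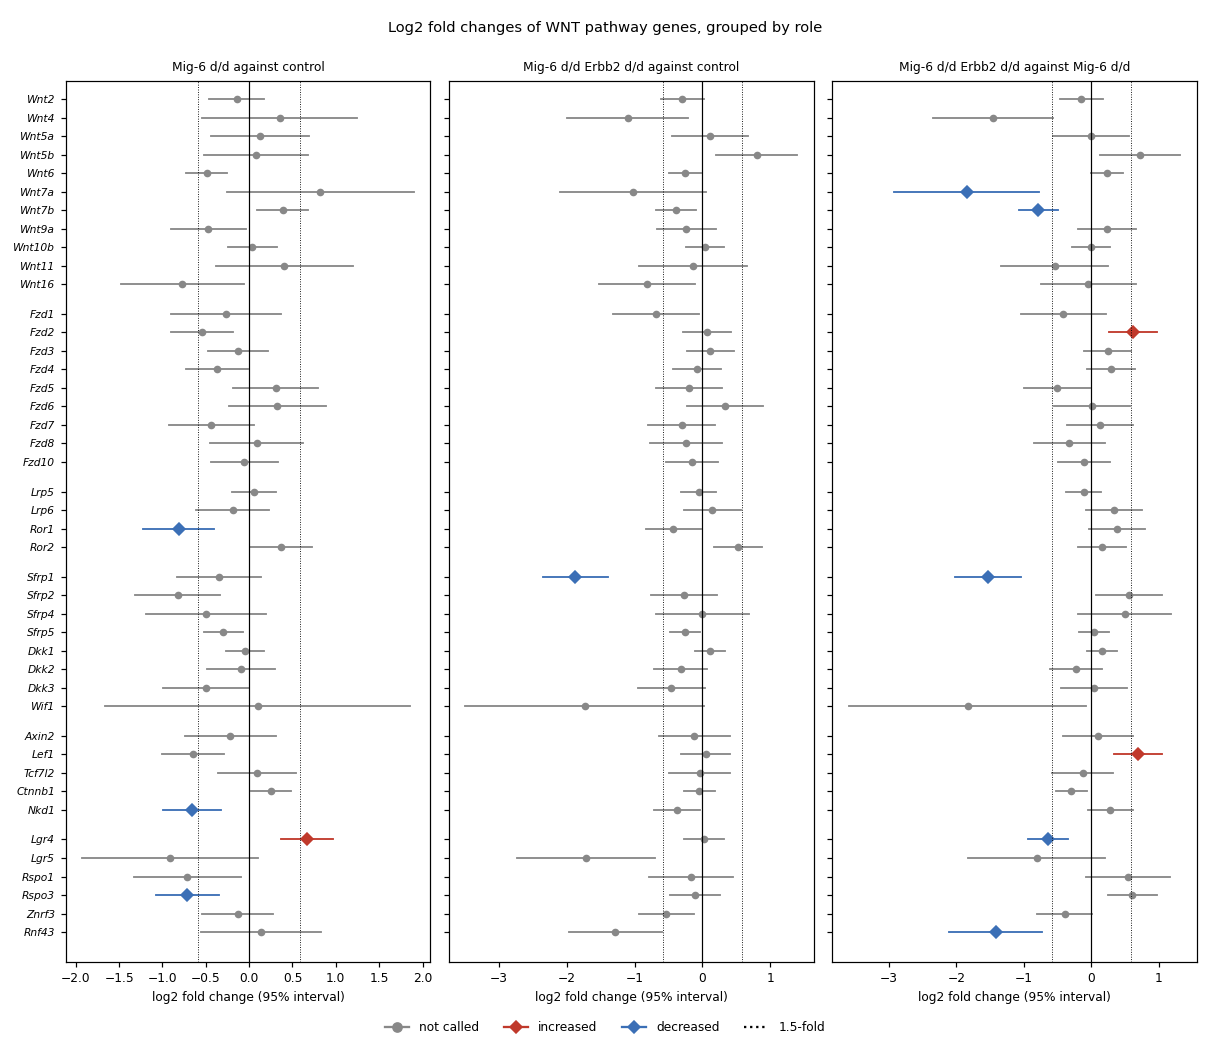
Log2 fold change (x axis) of each of the 43 WNT genes with its 95% interval from limma, grouped by role from top to bottom (ligands, Frizzled receptors, other receptors, secreted antagonists, mediators and targets, R-spondin module), in 3 comparisons. Diamonds mark called genes and dotted lines mark 1.5-fold; Sfrp1 reached -1.87 against control and Wnt7a -1.85 against Mig-6 d/d in the double knockout.

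Upstream sequence is shown for 3 of the 10 called genes, chosen because a searched motif is in the 300 bases shown. RefSeq promoters (GRCm38.p6, 250 bases before to 50 after a transcript start) were given for 29 of the 43 genes, 38 promoters in all, and for 6 of the 10 called genes; Rspo3, Sfrp1, Fzd2 and Wnt7b had no entry. Both strands were searched for the core of the TCF/LEF motif, CTTTGA or TCAAAG, and for the progesterone receptor half-site, TGTTCT or AGAACA. Neither motif contains the other. Capitals mark the matches, each sequence runs 5′ to 3′ on the gene's + strand, and in Lef1 the half-site shares 1 base with the second TCF/LEF match.
Ror1 chr4:100095541-100095840: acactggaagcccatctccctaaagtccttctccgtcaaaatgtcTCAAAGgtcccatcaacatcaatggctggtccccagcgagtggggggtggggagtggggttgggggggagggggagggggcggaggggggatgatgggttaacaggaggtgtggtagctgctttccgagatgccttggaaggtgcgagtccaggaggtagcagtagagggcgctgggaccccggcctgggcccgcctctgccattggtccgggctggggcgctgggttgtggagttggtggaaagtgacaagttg
Lef1 chr3:131156044-131156343: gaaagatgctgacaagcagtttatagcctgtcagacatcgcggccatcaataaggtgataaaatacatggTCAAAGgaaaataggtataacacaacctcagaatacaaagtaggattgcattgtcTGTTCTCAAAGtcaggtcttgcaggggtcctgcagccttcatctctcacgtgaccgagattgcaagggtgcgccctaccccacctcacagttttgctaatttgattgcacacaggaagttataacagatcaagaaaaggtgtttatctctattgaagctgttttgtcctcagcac
Rnf43 chr11:87662837-87663136: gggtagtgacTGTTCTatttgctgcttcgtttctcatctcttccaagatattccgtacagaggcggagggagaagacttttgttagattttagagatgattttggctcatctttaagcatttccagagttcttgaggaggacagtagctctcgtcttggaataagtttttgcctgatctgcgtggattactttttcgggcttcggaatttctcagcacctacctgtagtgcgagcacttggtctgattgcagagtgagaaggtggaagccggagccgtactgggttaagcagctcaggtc
The TCF/LEF core was in 6 of the 38 promoters of the 43 genes (15.8%), beside 16.0% of all 32851 RefSeq promoters, and the half-site was in 8 of them (21.1%, beside 19.0%). Of the other called genes, the promoters of Lgr4, Nkd1 and Wnt7a held neither motif in this window. Lef1 had 4 promoters and Rnf43 had 2, of which 1 more, in Lef1, held a half-site. A match of letters is a description and not a binding site.

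Among the 11 ligand genes, those of Wnt7a and Wnt7b were decreased in the double against the single knockout, and no ligand was called against control in either knockout. Wnt7a, made by the uterine epithelium and needed for gland formation, read 22.1, 18.9 and 29.8 in the double knockout, 99.35, 99.5 and 58.4 in Mig-6 d/d and 33.8, 25.6 and 121 in control. The double-knockout arrays all lay below the Mig-6 d/d arrays, and control replicate 3 alone reached the Mig-6 d/d level. Its log2 fold change was -1.85 against Mig-6 d/d (SE 0.48, limma adjusted p = 0.0499), a call at the very edge of the threshold. The call was lost in 7 of the 9 fits that left out 1 array, with adjusted p up to 0.152, and kept without control replicate 2 or 3, and without the library labelled as Mig-6 d/d replicate 3 it was -2.10 (adjusted p = 0.0698). Without control replicate 3, whose epithelial marker sum was 5994 against 3610 and 3395 in the other controls, Wnt7a was -1.85 against Mig-6 d/d (limma adjusted p = 0.00318) and became called as increased in Mig-6 d/d against control, at 1.5015 (adjusted p = 0.0216) instead of 0.82 (adjusted p = 0.429). A second Wnt7a probe set above the median level was not called, at 0.27 on the log2 scale in the double against the single knockout (adjusted p = 0.167).

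Wnt7b, a close relative also found in epithelia, read 13.4, 14.9 and 12.8 in the double knockout, 21.8, 20.7 and 28.8 in Mig-6 d/d and 16.8, 18.9 and 18.3 in control. The 3 groups did not overlap, with the double knockout lowest and Mig-6 d/d highest. Against Mig-6 d/d the log2 fold change was -0.78 (SE 0.13, limma adjusted p = 0.00919), and it stayed called in all 9 fits that left out 1 array, with log2 fold changes of -0.88 to -0.64. The second Wnt7b probe set, at or under the median level, had -0.15 in this comparison (adjusted p = 0.503). Against control, Wnt7b had log2 fold changes of -0.40 in the double knockout (adjusted p = 0.438) and 0.39 in Mig-6 d/d (adjusted p = 0.144), neither of them called.

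Wnt4, which acts in the stroma as it turns into decidua, read 20.01, 14.6 and 32.2 in the double knockout, 80.5, 48.3 and 50.3 in Mig-6 d/d and 29.5, 36.7 and 86.9 in control. All 3 double-knockout arrays were below the Mig-6 d/d arrays, and control replicate 3 was again far above the other controls. Its log2 fold change against Mig-6 d/d was -1.46 (SE 0.40, limma adjusted p = 0.0588) and missed the call, which it passed without control replicate 3 (adjusted p = 0.0168) or control replicate 1 (adjusted p = 0.0462). The second Wnt4 probe set had -0.76 (adjusted p = 0.189).

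Wnt5a, the ligand of ROR receptors, read 338, 545 and 396 in the double knockout, 425, 542 and 322 in Mig-6 d/d and 505, 284 and 400 in control. At this probe set the groups overlapped. Its log2 fold changes were 0.12 in the double knockout against control, 0.12 in Mig-6 d/d against control (95% interval -0.44 to 0.69) and -0.01 between the knockouts. The other Wnt5a probe sets, all above the median level, had -0.36, -0.07 and -0.12 in the double knockout against control. In Mig-6 d/d against control they had -0.19, -0.12 and 0.12, and none was called. At the first of them the double knockout, at 193 to 215, lay below control, at 240 to 280. Wnt6, another ligand gene of the uterus, read 11.03, 12.4 and 10.3 in the double knockout, 9.41, 10.1 and 9.07 in Mig-6 d/d and 13.5, 14.4 and 12.2 in control. All Mig-6 d/d arrays were below all control arrays, with an adjusted p of 0.0386 in limma and a log2 fold change of -0.49, under the 1.5-fold limit. In Wnt6's second probe set the change was -0.27 (adjusted p = 0.433).

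The other 6 ligand genes were not called in any comparison. Wnt5b read 10.5, 8.07 and 20.5 in the double knockout, 7.62, 7.62 and 6.70 in Mig-6 d/d and 6.80, 7.27 and 6.67 in control. The double-knockout arrays lay above both other groups. All other arrays, and double-knockout replicate 2, were under the median level of all probe sets (8.19). The log2 fold change of Wnt5b was 0.80 against control (limma adjusted p = 0.438) and 0.72 against Mig-6 d/d (adjusted p = 0.154). At its second probe set the groups overlapped, with 0.91 against control (adjusted p = 0.463) and 0.97 against Mig-6 d/d (adjusted p = 0.103). For Wnt16, the double knockout read 11.4, 11.3 and 28.4, Mig-6 d/d 15.05, 17.5 and 15.35 and control 25.4, 22.2 and 35.4. Every Mig-6 d/d array of Wnt16 lay below control, with a log2 fold change of -0.77 (limma adjusted p = 0.230). In the double knockout against control Wnt16 had -0.82 (adjusted p = 0.551). Without double-knockout replicate 3, its highest array in that group, Wnt16 was called as decreased in both comparisons. It had -1.26 in the double knockout against control (limma adjusted p = 0.0398) and -0.77 in Mig-6 d/d against control (adjusted p = 0.0461). The fits that left out any other array did not call Wnt16. Wnt11 had 1 high array, at 49.8 in Mig-6 d/d replicate 2 against 17.5 and 19.3 in the others of that group. Wnt9a had group means of 26.0 ± 5.40 in the double knockout, 22.0 ± 3.32 in Mig-6 d/d and 30.6 ± 5.92 in control (SD, n = 3 each). Wnt10b averaged 8.81 in the double knockout, 8.84 in Mig-6 d/d and 8.68 in control, and Wnt2, at or under the median level of all probe sets (8.19), averaged 6.04 in the double knockout, 6.75 in Mig-6 d/d and 7.46 in control.

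**Figure D3:**
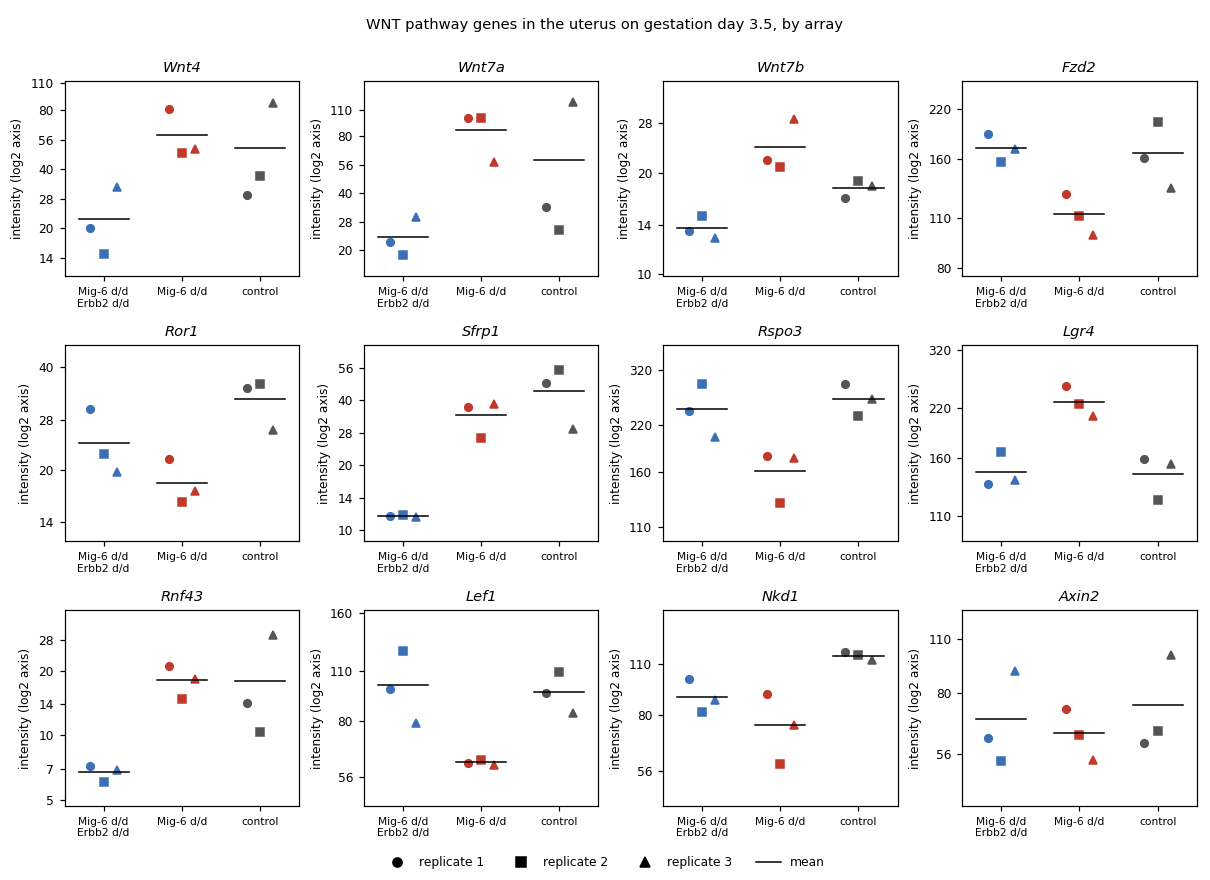
Intensity on a log2 axis of the 10 called WNT genes and of Wnt4 and Axin2, with 1 point per array, the shape giving the replicate and the bar the mean of 3 arrays, for the double knockout, Mig-6 d/d and control from left to right. Sfrp1 read 11.5 to 11.8 in the double knockout, below all other arrays, and Lgr4 read 209 to 253 in Mig-6 d/d, above all other arrays.

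Of the 9 Frizzled receptor genes, Fzd2 was increased in the double against the single knockout and the others were not called in any comparison. Fzd2 read 188, 157 and 170 in the double knockout, 128, 112 and 98.4 in Mig-6 d/d and 161, 203 and 133 in control. The Mig-6 d/d arrays were the lowest, without overlap with either group. In the double knockout the log2 fold change was 0.61 against Mig-6 d/d (SE 0.16, limma adjusted p = 0.0489), and that of Mig-6 d/d against control was -0.54 (adjusted p = 0.0951), which was not called. Both other Fzd2 probe sets had changes of the same signs in these comparisons. In Mig-6 d/d against control they were called as decreased, with log2 fold changes of -0.73 (adjusted p = 0.0488) and -0.61 (adjusted p = 0.01405), and in the double against the single knockout they had 0.58 (adjusted p = 0.0753, not called) and 0.71 (adjusted p = 0.00472, called). For the probe set used, the call against Mig-6 d/d was kept without control replicate 2 or 3 and lost in the other 7 of 9 fits that left out 1 array, with adjusted p up to 0.157, which was the value without the library labelled as Mig-6 d/d replicate 3 (log2 fold change 0.52).

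Fzd1, a receptor that can signal through β-catenin, read 232.5, 151 and 151 in the double knockout, 256, 215.5 and 228 in Mig-6 d/d and 378, 349 and 167 in control. Control replicate 3 was within the range of the double knockout, and the log2 fold change against control was -0.69 in the double knockout (SE 0.28, limma adjusted p = 0.597). Fzd10 lay below control in all double-knockout arrays, at 13.4 to 14.1 in the double knockout against 14.3 to 16.65 in control, with a log2 fold change of -0.16. Fzd4, the receptor for norrin as well as for WNT proteins, averaged 33.4 ± 0.32 in the double knockout, 27.6 ± 4.96 in Mig-6 d/d and 35.7 ± 6.42 in control. Fzd5, a receptor found in epithelia, averaged 26.7 ± 3.94 in the double knockout, 38.8 ± 11.7 in Mig-6 d/d and 30.9 ± 5.95 in control (SD, n = 3). The remaining Frizzled genes, Fzd3, Fzd6, Fzd7 and Fzd8, had log2 fold changes between -0.44 and 0.34 over the 3 comparisons. The median log2 fold change of the 9 genes in the double against the single knockout was 0.01 and turned to -0.02 with centred arrays.

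Of the 4 genes of co-receptors and receptor kinases, Ror1 was decreased in Mig-6 d/d against control. Ror1, whose product binds WNT5A, read 30.0, 22.2 and 19.65 in the double knockout, 21.5, 16.0 and 17.3 in Mig-6 d/d and 34.7, 35.5 and 26.0 in control. Mig-6 d/d was below control without overlap, and the double knockout lay between them and overlapped with both. In Mig-6 d/d against control the Ror1 log2 fold change was -0.81 (SE 0.18, limma adjusted p = 0.0428). It was -0.78 without the library labelled as Mig-6 d/d replicate 3 (adjusted p = 0.126), and the call was lost in 6 of 9 fits that left out 1 array (any Mig-6 d/d array, double-knockout replicate 2, or control replicate 1 or 2), with adjusted p up to 0.140. The 2 other Ror1 probe sets were at or under the median level, with log2 fold changes of -0.05 and -0.09. In the Ror1 promoter shown above, 1 TCF/LEF core was present. Ror2, the related kinase, read 97.9, 76.1 and 106 in the double knockout, 95.5, 73.3 and 80.6 in Mig-6 d/d and 61.6, 56.45 and 75.6 in control. Its double-knockout arrays lay above control without overlap, with a log2 fold change of 0.53 (limma adjusted p = 0.357), and its second probe set had 0.79 (adjusted p = 0.264). The co-receptor gene Lrp6 read 86.1, 85.4 and 90.1 in the double knockout, 83.1, 48.1 and 82.3 in Mig-6 d/d and 83.6, 71.7 and 81.8 in control. The double-knockout arrays were above both other groups, Mig-6 d/d replicate 2 was low, and no difference was called. Lrp5 was at or under the median level and averaged 7.38 in the double knockout, 8.02 in Mig-6 d/d and 7.66 in control.

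Among the 8 secreted antagonists, Sfrp1 was decreased in the double knockout against both other groups. Sfrp1 encodes a protein that binds WNT ligands outside the cell, and its probe set read 11.6, 11.8 and 11.5 in the double knockout, 37.1, 26.6 and 38.5 in Mig-6 d/d and 47.9, 55.1 and 29.4 in control. The double-knockout arrays lay within a very narrow range and far below all others, while Mig-6 d/d and control overlapped. The log2 fold change was -1.87 against control (SE 0.22, limma adjusted p = 0.00530) and -1.53 against Mig-6 d/d (SE 0.22, adjusted p = 0.00489). Both calls were kept in all 9 fits that left out 1 array, with log2 fold changes of -2.14 to -1.69 against control and -1.70 to -1.43 against Mig-6 d/d.

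The 4 other Sfrp1 probe sets did not give this result. Against control, the 3 of them above the median level had log2 fold changes of -0.53, 0.29 and -0.37 in the double knockout, with adjusted p of 0.594, 0.888 and 0.740 in limma. Against Mig-6 d/d they had -0.54, 0.70 and -0.45 (adjusted p = 0.194, 0.176 and 0.232), so that 1 of them ran the opposite way. That probe set read 30.1, 22.0 and 22.4 in the double knockout, 17.0, 13.45 and 15.1 in Mig-6 d/d and 18.1, 32.9 and 13.6 in control. With the mean over all 5 probe sets, Sfrp1 was not called in either comparison, at -0.46 against control (adjusted p = 0.569) and -0.31 against Mig-6 d/d (adjusted p = 0.321). The decrease was called at 1 of the 5 probe sets. Which part of the transcript each probe set reads was not analysed here.

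**Figure D4:**
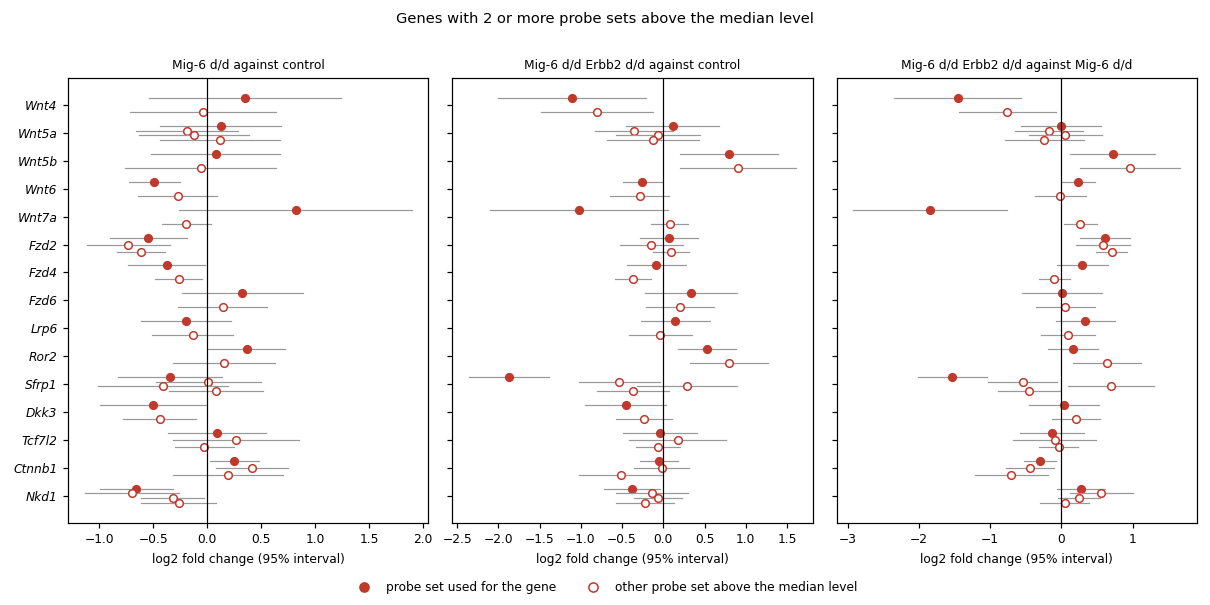
Log2 fold change (x axis) with its 95% interval from limma for the 15 WNT genes that have 2 or more probe sets above the median level, in 3 comparisons; filled points are the probe set used for the gene and open points the others. The 3 probe sets of Fzd2 lie together, while the probe set used for Sfrp1, at -1.87 against control in the double knockout, stands away from its others.

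Sfrp2, an antagonist of the same family, read 200, 190 and 122 in the double knockout, 109, 131.5 and 102 in Mig-6 d/d and 224, 240 and 151 in control. All Mig-6 d/d arrays were below control, and the double knockout overlapped with both groups. The log2 fold change of Mig-6 d/d against control was -0.83 (SE 0.22, limma adjusted p = 0.0734), which was not called, and it was -1.03 without control replicate 3 (adjusted p = 0.0334). Sfrp4, a further member of the family, read 311, 197 and 228 in the double knockout, 173, 179 and 161 in Mig-6 d/d and 277, 372 and 136 in control. Control replicate 3 was the lowest of all 9 arrays for Sfrp4, whose log2 fold changes were not called in any of the 3 comparisons of all arrays. Without that array Sfrp4 was called as decreased in Mig-6 d/d against control, at -0.91 (limma adjusted p = 0.0410) instead of -0.50 (adjusted p = 0.460). It was not called in the fits that left out any other array. Sfrp5 lay below control in both knockouts without overlap, at 10.3 to 11.4 in the double knockout, 10.2 to 10.95 in Mig-6 d/d and 12.1 or more in control. Its log2 fold changes against control were -0.26 in the double knockout (adjusted p = 0.556) and -0.30 in Mig-6 d/d (adjusted p = 0.140).

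Wif1, which also binds WNT proteins outside the cell, varied most between arrays of 1 group. It read 3.19, 3.43 and 3.26 in the double knockout, 47.4, 8.57 and 3.98 in Mig-6 d/d and 16.6, 4.32 and 18.4 in control. Every double-knockout array lay below every other array and under the median level of all probe sets. Mig-6 d/d replicate 3 and control replicate 2 were also under that level. The log2 fold changes of Wif1 were -1.74 against control (SE 0.79, limma adjusted p = 0.663) and -1.83 against Mig-6 d/d (adjusted p = 0.227), neither of them called. Of the Dickkopf genes, whose products bind LRP co-receptors in the case of DKK1 and DKK2, Dkk1 was at or under the median level and averaged 7.37 in the double knockout, 6.60 in Mig-6 d/d and 6.81 in control. Dkk2 averaged 68.0 ± 10.7 in the double knockout, 79.8 ± 13.9 in Mig-6 d/d and 85.2 ± 14.9 in control. Dkk3, the divergent member of the family, averaged 83.25 ± 19.5 in the double knockout, 81.2 ± 20.8 in Mig-6 d/d and 113 ± 19.9 in control (SD, n = 3), and none of the 3 genes was called.

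The module of R-spondins, LGR receptors and E3 ligases sets how many WNT receptors stay on the cell surface. R-spondins bind LGR receptors and so hold back the ligases RNF43 and ZNRF3, which remove Frizzled receptors. Of its 6 genes, Lgr4 was increased and Rspo3 decreased in Mig-6 d/d against control, and Lgr4 and Rnf43 were decreased in the double against the single knockout. Lgr4 read 135, 166 and 139 in the double knockout, 253, 226 and 209 in Mig-6 d/d and 159, 122 and 153 in control. The Mig-6 d/d arrays stood above all others, and the double knockout overlapped with control. In Mig-6 d/d against control the log2 fold change was 0.67 (SE 0.13, limma adjusted p = 0.0293), and in the double against the single knockout it was -0.65 (SE 0.13, adjusted p = 0.0199), both from the same Mig-6 d/d arrays. Against control the double knockout had 0.02, with a 95% interval of -0.28 to 0.32. Without the library labelled as Mig-6 d/d replicate 3, Lgr4 had 0.73 in Mig-6 d/d against control (adjusted p = 0.0616) and -0.71 in the double against the single knockout (adjusted p = 0.0391). The first call was lost in 4 of the 9 fits that left out 1 array (any Mig-6 d/d array or control replicate 2), with adjusted p up to 0.0987, and the second in 3 (double-knockout replicate 1 or 3, or Mig-6 d/d replicate 1), with adjusted p up to 0.0779. The second Lgr4 probe set, at or under the median level, had 0.09 and -0.14 in these comparisons and was not called.

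Rspo3, an R-spondin gene, read 243, 291 and 202.5 in the double knockout, 178, 130.0 and 175 in Mig-6 d/d and 290, 235 and 263 in control. Here the Mig-6 d/d arrays were the lowest, without overlap with either group. On the log2 scale the change was -0.71 in Mig-6 d/d against control (SE 0.16, limma adjusted p = 0.0442), and 0.61 in the double against the single knockout (adjusted p = 0.0558), which missed the call and passed it without double-knockout replicate 3, at 0.74 (adjusted p = 0.0438). The call for Rspo3 was kept without double-knockout replicate 2 or 3 and lost in the other 7 of 9 fits that left out 1 array, with adjusted p up to 0.107, and without the library labelled as Mig-6 d/d replicate 3 the value was -0.78 (adjusted p = 0.0913). Its second probe set, at or under the median level, had -0.11. Rspo1, also an R-spondin, read 96.3, 58.8 and 67.5 in the double knockout, 54.9, 44.5 and 50.6 in Mig-6 d/d and 51.5, 87.5 and 121 in control. Its double-knockout arrays were above the Mig-6 d/d arrays, with a log2 fold change of 0.54 (limma adjusted p = 0.322). In Mig-6 d/d against control Rspo1 had -0.71 (limma adjusted p = 0.205) and was not called. Among the 9 fits that left out 1 array it was called only without control replicate 1, at -1.05 (adjusted p = 0.0322).

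Rnf43 read 7.17, 6.09 and 6.89 in the double knockout, 21.1, 14.9 and 18.35 in Mig-6 d/d and 14.2, 10.35 and 29.55 in control. The double-knockout arrays were below all others and under the median level of all probe sets, where signal over background was not judged. Its log2 fold change was -1.42 against Mig-6 d/d (SE 0.31, limma adjusted p = 0.0246) and -1.28 against control (SE 0.31, adjusted p = 0.188). Without the library labelled as Mig-6 d/d replicate 3 the value against Mig-6 d/d was -1.40 (adjusted p = 0.0731), and the call was lost in 5 of 9 fits that left out 1 array (any double-knockout array, or Mig-6 d/d replicate 1 or 3), with adjusted p up to 0.0934. In the Rnf43 promoter shown above, the half-site was present once. Znrf3, the related ligase, read 36.3, 40.6 and 34.9 in the double knockout, 59.3, 48.8 and 40.7 in Mig-6 d/d and 53.4, 42.35 and 68.75 in control. Those of the double knockout were again below all others, with log2 fold changes of -0.53 against control (adjusted p = 0.462) and -0.40 against Mig-6 d/d (adjusted p = 0.263), neither called. Lgr5, a receptor that marks epithelial stem cells in other tissues, read 6.65, 5.48 and 5.65 in the double knockout, 11.75, 12.8 and 7.40 in Mig-6 d/d and 12.0, 12.6 and 48.9 in control. The double-knockout arrays were lowest and, with Mig-6 d/d replicate 3, under the median level of all probe sets. Control replicate 3 was far above the other arrays, and the log2 fold change against control was -1.72 (SE 0.46, limma adjusted p = 0.255). Without control replicate 3 it was -1.06 against control (adjusted p = 0.139). Against Mig-6 d/d Lgr5 was then called as decreased, at -0.81 (limma adjusted p = 0.0334, beside 0.377 with all arrays). The fits that left out any other array did not call Lgr5.

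Within the cell, 5 genes of mediators and targets were read, of which Nkd1 was decreased in Mig-6 d/d against control and Lef1 was increased in the double against the single knockout. Ctnnb1, which encodes β-catenin, read 2032, 2291 and 2274 in the double knockout, 2855, 2569 and 2699 in Mig-6 d/d and 2392, 2039 and 2395 in control. The Mig-6 d/d arrays were the highest. At this probe set the log2 fold changes were 0.25 in Mig-6 d/d against control (SE 0.10, limma adjusted p = 0.224) and -0.30 in the double against the single knockout (adjusted p = 0.121). The other Ctnnb1 probe sets, both above the median level, had 0.42 and 0.19 in Mig-6 d/d against control. In the double against the single knockout they had -0.44 and -0.70 (limma adjusted p = 0.117 and 0.104), and none of these was called. Axin2, part of the complex that destroys β-catenin and the usual transcriptional readout of the pathway, read 61.6, 53.5 and 91.4 in the double knockout, 73.1, 62.55 and 53.8 in Mig-6 d/d and 59.8, 64.2 and 100.5 in control. All groups overlapped, with log2 fold changes of -0.22 in Mig-6 d/d against control (95% interval -0.74 to 0.31), -0.12 in the double knockout against control (-0.64 to 0.40) and 0.10 in the double against the single knockout (-0.43 to 0.62). A change of 1.5-fold in Axin2 was thus not excluded in any comparison.

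Lef1, a transcription factor that acts with β-catenin, read 98.6, 125 and 79.1 in the double knockout, 61.4, 62.5 and 60.5 in Mig-6 d/d and 96.1, 110 and 84.25 in control. The Mig-6 d/d arrays were closely grouped and below both other groups, which overlapped. Its log2 fold change was 0.69 in the double against the single knockout (SE 0.16, limma adjusted p = 0.0306) and -0.65 in Mig-6 d/d against control (SE 0.16, adjusted p = 0.0575), where it missed the call and passed it without double-knockout replicate 2 (adjusted p = 0.0416) or 3 (adjusted p = 0.0384). Without the library labelled as Mig-6 d/d replicate 3 these values were 0.68 (adjusted p = 0.0897) and -0.63 (adjusted p = 0.148), and the call was lost in 5 of 9 fits that left out 1 array (any Mig-6 d/d array, or double-knockout replicate 1 or 2), with adjusted p up to 0.0928. The second Lef1 probe set, at or under the median level, had 0.19 (adjusted p = 0.280). Its promoter shown above, 1 of 4, held 2 TCF/LEF cores and 1 half-site.

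Nkd1, a feedback inhibitor that binds dishevelled, read 100, 81.3 and 87.9 in the double knockout, 91.0, 58.4 and 75.1 in Mig-6 d/d and 119, 116 and 113 in control. Both knockouts lay below control without overlap and overlapped with each other. The log2 fold change of Mig-6 d/d against control was -0.66 (SE 0.15, limma adjusted p = 0.0451), and that of the double knockout was -0.38 (SE 0.15, adjusted p = 0.573). The other 3 Nkd1 probe sets had -0.70, -0.32 and -0.26 in Mig-6 d/d against control (adjusted p = 0.0846, 0.232 and 0.435), on the same side of 0 and not called. The Nkd1 call was kept without Mig-6 d/d replicate 1 and lost in the other 8 of 9 fits that left out 1 array, with adjusted p up to 0.124, and without the library labelled as Mig-6 d/d replicate 3 the value was -0.67 (adjusted p = 0.116). Tcf7l2, which encodes a further TCF factor, averaged 40.2 ± 2.67 in the double knockout, 44.1 ± 5.15 in Mig-6 d/d and 42.7 ± 12.6 in control (SD, n = 3) and was not called.

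Taking the whole set without the library labelled as Mig-6 d/d replicate 3, limma called 0 of the 43 genes in Mig-6 d/d against control, while 1 was higher and 8 were lower at an unadjusted p under 0.05, beside 4 and 13 with it. Of all genes, 0.797% were called increased and 0.671% decreased without it, and 9.62% were higher and 10.5% lower at that unadjusted p, beside 11.3% and 12.7% with it. The median log2 fold change was then -0.11. In the double against the single knockout, 3 decreased genes were called without it, Sfrp1, Wnt7b and Lgr4, where 2.17% of all genes were called decreased. Leaving out control replicate 3 instead gave 2 increased and 4 decreased genes in Mig-6 d/d against control, where 2.67% and 2.04% of all genes were called. In the double against the single knockout it gave 2 increased and 7 decreased genes, beside 4.18% and 4.08% of all genes.

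A wider list of 65 further WNT pathway genes, of which 64 were measured, was read in the same way. In Mig-6 d/d against control 2 were increased, Dkkl1 and Celsr1 (3.12% of the 64, beside 2.55% of all genes), and 1 was decreased, Daam2 (1.56%, beside 1.81%), with a median log2 fold change over the list of -0.04. Dkkl1 was under the median level on all 9 arrays, at 3.75 to 7.46. Celsr1, a cadherin of planar cell polarity in epithelia, read 18.1, 14.4 and 15.7 in the double knockout, 43.2, 28.2 and 39.7 in Mig-6 d/d and 20.55, 13.1 and 20.9 in control. The Mig-6 d/d arrays of Celsr1 stood above all others, with a log2 fold change of 1.04 against control (limma adjusted p = 0.0299). Daam2, which links dishevelled to the actin skeleton, read 18.7, 19.2 and 19.97 in the double knockout, 12.5, 10.02 and 11.2 in Mig-6 d/d and 17.4, 19.4 and 19.0 in control, and was lowest in Mig-6 d/d (-0.73, adjusted p = 0.0104). The double knockout against control had 0 called in limma, beside 0.214% of all genes called increased and 0.198% called decreased. At an unadjusted limma p under 0.05 it had 10 of the 64, beside 7.97% of all genes. Against Mig-6 d/d the double knockout had Daam2 increased and Celsr1, Celsr2 and Ccnd1, the gene of the cell cycle regulator cyclin D1, decreased (1.56% and 4.69% of the list, beside 3.73% and 3.76% of all genes). Ccnd1 read 357, 284 and 245.5 in the double knockout, 489, 387 and 500 in Mig-6 d/d and 376.5, 412 and 402 in control, and its decrease was -0.64 on the log2 scale (adjusted p = 0.0307).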

How the data were processed

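RNA of whole mouse uteri was hybridised to 9 Affymetrix Mouse Genome arrays. The authors deposited 1 table of linear intensities for 45037 probe sets, which they made with RMA (robust multi-array averaging, quantile-normalized) in an unstated version. Log2 values were computed here from the deposited intensities. Neither scanner files nor detection calls entered the work, and precision is limited by the 3 arrays a group. Of the probe sets, 34945 had 1 gene symbol in the platform annotation, 932 had several and 9160 were unnamed here; 34741 matched a RefSeq table by Entrez identifier, which changed 0 symbols.

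Differences were fitted in R 4.3.3 with limma 3.58.1 (statmod 1.5.0 for robust fits), two-sided, with 3 groups and 3 comparisons in 1 model, and the fit was checked on simulated data. Values are given as mean ± SD or per array. Genes given in full are called genes, Wnt4, Wnt5a, Wnt7a, Ctnnb1 and Axin2, and the 2 genes of each role with the smallest p; others given per array (Wnt5b, Wnt16, Lrp6, Sfrp4, Wif1, Rspo1, Znrf3, Lgr5, Celsr1, Daam2, Ccnd1) were chosen after their values were seen. The genes, lists and tests were chosen with earlier results of these data known. The alternatives tried were to drop dim probe sets, to quantile normalize again, to centre arrays on their medians and to use a trended robust variance. Others were to fit the 6 arrays compared alone, to block by replicate number, to leave out each array and to drop the fold limit. The last were to average all probe sets of a gene and to use an unpaired t-test, with and without adjustment. The methods give that t-test for data of 2 groups and do not name the test of the arrays. Figures were drawn with Python 3.11.15, pandas 2.3.3 and matplotlib 3.10.9.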

Additional observations from a re-analysis of the deposited data

How the results depend on the processing

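In the 12 comparisons in which a WNT gene was called, the log2 fold change of that gene kept its sign under all 19 alternatives. Many of these could not have changed the sign. The fold limit, the dim filter, the trended variance, the t-tests, the replicate block and the 6 arrays alone leave the difference of group means as it was. So does leaving out an array of the group not compared. Leaving out an array of a compared group could not reverse the sign either, because the groups compared did not overlap in any of these 12 comparisons. Only the further quantile normalization, the centring on medians and the mean over probe sets could have reversed it. Other comparisons of these genes were not all of 1 sign, as for Lgr4 in the double knockout against control, at 0.02 with all arrays and -0.07 without double-knockout replicate 2. The number of WNT genes called in Mig-6 d/d against control, 4, became 1 with arrays centred on their medians (Lgr4). It became 1 with only the 6 arrays compared (Lef1) and 1 with the mean over the probe sets of a gene (Fzd2). By the unpaired t-test it was 7 without adjustment and 0 with it, and with 1 array left out it was 0 to 6. It was 0 without the libraries labelled as Mig-6 d/d replicate 2, Mig-6 d/d replicate 3 or control replicate 2. There 15, 9 and 11 WNT genes had an unadjusted limma p under 0.05, beside 21.3%, 20.2% and 19.6% of all genes. In the double knockout against control the 1 gene became 2 by the unadjusted t-test, 0 by the adjusted one, 0 with the mean over probe sets and 1 to 2 with 1 array left out. In the double against the single knockout the 7 genes became 0 by the adjusted t-test, 2 with the mean over probe sets and 2 to 9 with 1 array left out.

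Over all genes, the 793 called in Mig-6 d/d against control became 384 with only the 6 arrays compared, 0 by the adjusted t-test and 217 to 1012 with 1 array left out. The 75 called in the double knockout against control became 41 with the 6 arrays, 211 and 0 by the unadjusted and adjusted t-test and 34 to 77 with 1 array left out. The 1362 called in the double against the single knockout became 20 by the adjusted t-test and 624 to 1503 with 1 array left out. The cause of these shifts was not tested. With the replicate number as a replicate block, 5, 1 and 7 WNT genes were called in the 3 comparisons. Deviations of same-numbered arrays correlated at -0.13 to 0.20, beside -0.30 to 0.33 for arrays of unlike number. No pairing by number was evident, and with 3 arrays a group these correlations cannot exclude it.

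Most calls here lie close to the threshold, 3 arrays a group give wide intervals, and a gene is read at 1 probe set. The calls of Sfrp1 and Wnt7b were kept in 17 of 19 alternatives each and lost by the adjusted t-test and with the mean over probe sets. How far signal lay over background was not judged.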
